A study of Mus musculus with 4 samples.

Results

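The 9 genes described here belong to Wnt signalling and were read in 4 RNA-seq libraries made from C3H10T1/2 cells, an established mouse line labelled as mesenchymal stem cells. They are 5 secreted antagonists (Sfrp1, Sfrp2, Frzb, Dkk2 and Dkk3), the ligand Wnt5a, the enhancer of Wnt signalling Rspo3, and the response genes Axin2 and Lef1. All 9 are among the 54532 Ensembl genes of the deposited counts, found by symbol in GENCODE M21. They were chosen by name with their read counts in these 4 libraries already known, and Sfrp1 was selected on its pattern across them, so their levels are given as a description without a test. Counts of members past a threshold are given for the same reason with nothing read from them.

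The libraries came from unedited cells (WT, 1 library), from cells with a CRISPR edit in Prdx1 at the splice acceptor of intron 5 (PRDX1MT, 1 library, whose genotype label reads PRDX1-KO), and from clones 1 and 5 of cells with DNMT3A and DNMT3B knocked out together (DKO, 2 libraries), the enzymes that place new DNA methylation. All came from the same line under the same culture protocol, with no further treatment named. How the clones were derived, and whether they also carry the Prdx1 edit, is not stated. Reads summed to between 27570136 and 37685798 per library. Levels are CPM, read counts over an effective library size set with TMM factors, which correct for differences in library composition. Ranges in brackets are 95% intervals for counting error alone. WT and PRDX1MT had no replicates, so a difference between them compares 2 libraries and not 2 conditions.

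Wnt ligands bind Frizzled receptors together with the co-receptors Lrp5 or Lrp6, which spares beta-catenin from a destruction complex built on Axin and Apc and lets it act with Tcf and Lef factors on target genes. Secreted Frizzled-related proteins (Sfrp1, Sfrp2 and Frzb) capture ligands outside the cell, and Dickkopf proteins such as Dkk2 act on the co-receptors, while R-spondins protect Frizzleds from removal by the ligases Znrf3 and Rnf43. Wnt5a mostly signals without beta-catenin, through Ror2, Ptk7 and several Frizzleds. In mesenchymal progenitors the pathway is known for steering the choice between bone, cartilage and fat, and SFRP1 is known as a gene silenced by promoter methylation in tumours.

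The labels were checked first. Prdx1 stood at 399 CPM in WT, 31.2 in PRDX1MT, and 392 and 332 in DKO clones 1 and 5. Dnmt3a stood at 43.7, 80.9, 31.3 and 25.9 CPM in the same order, and Dnmt3b at 3.28, 3.74, 2.83 and 2.03 CPM. Read counts of Dnmt3a and Dnmt3b do not check a knockout made by small edits. All 14 mesenchymal markers listed had at least 10 reads in every library, with a summed level of 23509 to 41513 CPM, although Thy1, a surface marker of such cells, stood at 29.0 CPM in WT and at 0.757 to 1.38 CPM in the edited libraries. Its part in the results was not tested. The summed level was 0.925 to 2.17 CPM for 7 epithelial, 6.88 to 18.2 CPM for 6 endothelial, 8.53 to 18.3 CPM for 7 immune and 78.6 to 208 CPM for 6 neural markers, the last carried by Map2. Epcam had 0 reads in all 4 libraries, and Ptprc had 4 reads in PRDX1MT and 0 elsewhere.

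Sfrp1 went from a main secreted antagonist of the unedited cells to a few reads in both DKO clones. Sfrp1 (ENSMUSG00000031548, GRCm38/mm10 chromosome 8, 23411502 to 23449632, plus strand) had 2716 reads in WT (66.0 CPM, 63.5 to 68.5), 794 in PRDX1MT (31.9 CPM, 29.7 to 34.2), 10 in clone 1 (0.280 CPM, 0.134 to 0.516) and 11 in clone 5 (0.399 CPM, 0.199 to 0.715). Both clones lay below both other libraries, their own intervals overlapped, and PRDX1MT lay between them and WT. With the reads of both clones pooled, Sfrp1 was 199-fold lower in DKO than in WT (130 to 321) and 96.0-fold lower than in PRDX1MT (62.4 to 156). PRDX1MT was 2.07-fold below WT (1.91 to 2.24). In bulk RNA, fewer cells with a transcript and less transcript per cell cannot be told apart, here and for each gene that follows.

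Frzb, also named Sfrp3, was far below WT in every edited library. Frzb (ENSMUSG00000027004, chromosome 2, 80411970 to 80447625, minus strand) had 1445 reads in WT (35.1 CPM, 33.3 to 37.0), 77 in PRDX1MT (3.10 CPM, 2.44 to 3.87), 50 in clone 1 (1.40 CPM, 1.04 to 1.85) and 0 in clone 5, where the 3 reads that a count of 0 allows are worth 0.109 CPM. The counting intervals of the 3 edited libraries did not overlap one another. Frzb was 11.3-fold lower than WT in PRDX1MT (9.02 to 14.5), 25.0-fold lower in clone 1 (18.9 to 33.9) and at least 322-fold lower in clone 5, taken against 3 counts in that library.

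Sfrp2 lay above WT in one clone and below it in the other. Sfrp2 (ENSMUSG00000027996, chromosome 3, 83766321 to 83774316, plus strand) had 1792 reads in WT (43.5 CPM, 41.6 to 45.6), 171 in PRDX1MT (6.87 CPM, 5.88 to 7.98), 5087 in clone 1 (143 CPM, 139 to 147) and 249 in clone 5 (9.04 CPM, 7.96 to 10.2). Clone 1 was the highest library and clone 5 stood near PRDX1MT, so WT lay between the clones. The level was 3.28-fold above WT in clone 1 (3.10 to 3.46), 4.82-fold below it in clone 5 (4.22 to 5.52), and 15.8-fold lower in clone 5 than in clone 1 (13.9 to 18.0). A DKO mean of 75.8 ± 94.5 CPM (SD, n = 2) therefore describes neither clone.

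Set per length, the shares of the 3 Frizzled-related genes differed between the libraries. Per kilobase of exon, their summed level was 46.2 CPM in WT, 11.4 in PRDX1MT, 66.7 in clone 1 and 4.29 in clone 5. Sfrp1 made up 32.7% of that sum in WT and 63.8% in PRDX1MT, against 0.0961% in clone 1 and 2.13% in clone 5. Sfrp2 made up 43.8% in WT, 27.9% in PRDX1MT, 99.3% in clone 1 and 97.9% in clone 5. Frzb made up 23.5% in WT, 8.35% in PRDX1MT, 0.649% in clone 1 and 0% in clone 5. Sfrp2 thus made up nearly all of the sum in both clones, while the minor shares and the total differed between them.

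**Figure D1:**
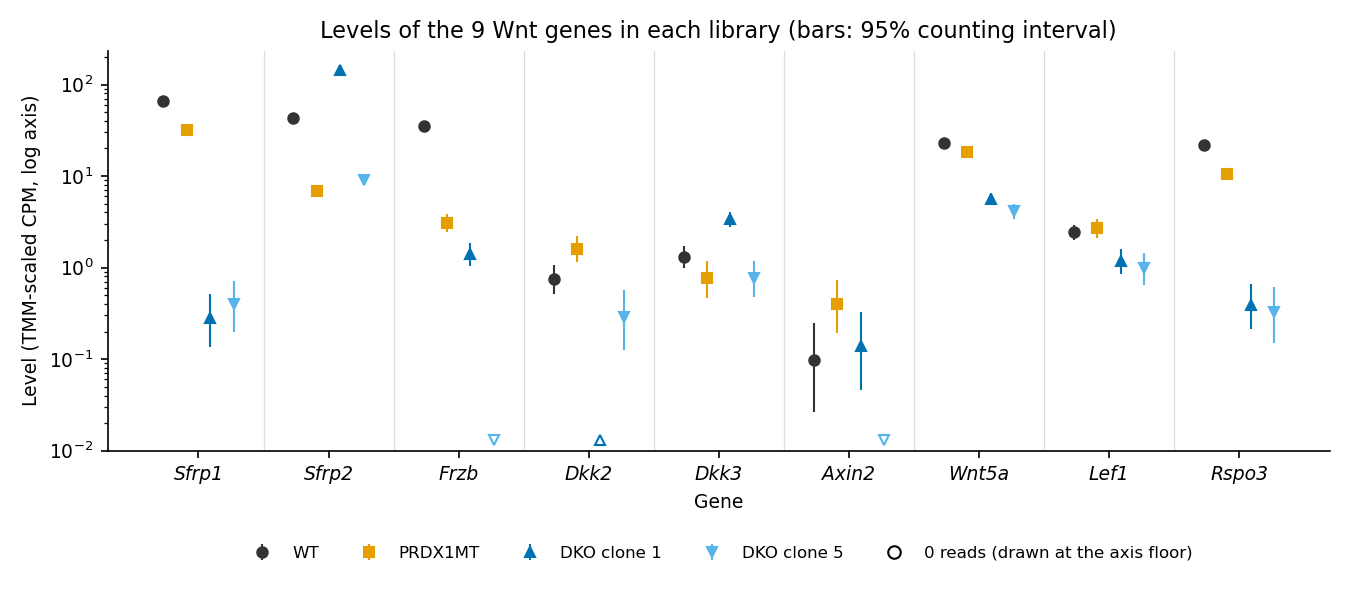
Level of each of the 9 genes in TMM-scaled CPM on a log axis, with 1 point per library and bars for the 95% counting interval; open symbols at the axis floor are libraries with 0 reads. Sfrp1 and Rspo3 show both DKO clones below 0.5 CPM, while for Sfrp2 clone 1 is at 143 CPM and clone 5 at 9.04 CPM.

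Both Dickkopf genes were scarce. Dkk2 (ENSMUSG00000028031, chromosome 3, 132085292 to 132180304, plus strand) had 31 reads in WT (0.753 CPM, 0.512 to 1.07), 40 in PRDX1MT (1.61 CPM, 1.15 to 2.19), 0 in clone 1 and 8 in clone 5 (0.291 CPM, 0.13 to 0.572). The clones lay below the other libraries, at least 8.96-fold below WT in clone 1 (against 3 counts) and 2.59-fold in clone 5 (1.17 to 6.53). Dkk3 (ENSMUSG00000030772, chromosome 7, 112116017 to 112159057, minus strand), a divergent relative that is not a typical Wnt inhibitor, had 54 reads in WT (1.31 CPM, 0.986 to 1.71), 19 in PRDX1MT (0.764 CPM, 0.460 to 1.19), 120 in clone 1 (3.37 CPM, 2.79 to 4.02) and 21 in clone 5 (0.763 CPM, 0.472 to 1.17). Its order repeated that of Sfrp2 in that clone 1 was highest, 2.56-fold above WT (1.84 to 3.60), and clone 5 was 4.41-fold below clone 1 (2.76 to 7.39). Among the other listed antagonists, Dkk1 and Wif1 had 0 reads in all 4 libraries.

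Wnt5a and Rspo3, which act on the side of signalling, were lower in both clones as well. Rspo3 (ENSMUSG00000019880, chromosome 10, 29452416 to 29535867, minus strand) had 890 reads in WT (21.6 CPM, 20.2 to 23.1), 265 in PRDX1MT (10.7 CPM, 9.41 to 12.0), 14 in clone 1 (0.393 CPM, 0.215 to 0.659) and 9 in clone 5 (0.327 CPM, 0.149 to 0.620). As with Sfrp1, PRDX1MT lay between WT and the clones. Pooled over the clones, Rspo3 was 59.4-fold lower than in WT (39.4 to 94.2) and 29.3-fold lower than in PRDX1MT (19.1 to 47.0). PRDX1MT itself was 2.03-fold below WT (1.77 to 2.34). Rspo2, an R-spondin outside the 9 genes, was far more abundant, with 405 CPM in WT, 270.5 in PRDX1MT, 768 in clone 1 and 267 in clone 5 (log2 ratio of DKO to WT 0.35, SE 0.70, adjusted p = 1.0 by edgeR).

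Wnt5a (ENSMUSG00000021994, chromosome 14, 28504750 to 28527448, plus strand) had 944 reads in WT (22.9 CPM, 21.5 to 24.5), 453 in PRDX1MT (18.2 CPM, 16.6 to 19.97), 201 in clone 1 (5.64 CPM, 4.88 to 6.47) and 113 in clone 5 (4.10 CPM, 3.38 to 4.93). The clones did not overlap the other libraries and were 4.07-fold (3.49 to 4.76) and 5.59-fold (4.59 to 6.86) below WT. Its close relative Wnt5b was already low in PRDX1MT, with 7.22 CPM in WT, 0.523 in PRDX1MT, 0.533 in clone 1 and 0.182 in clone 5. Wnt5b did not pass the test between DKO and WT (log2 ratio -4.30, SE 0.84, adjusted p = 0.121 by edgeR). It was called lower by DESeq2, and by edgeR without a filter on low counts.

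The response genes were read too thinly for fine comparison. Axin2 (ENSMUSG00000000142, chromosome 11, 108920349 to 108950783, plus strand), a feedback inhibitor that beta-catenin switches on in most cell types, had 4 reads in WT, 10 in PRDX1MT, 5 in clone 1 and 0 in clone 5. Its intervals were 0.026 to 0.249 CPM in WT and 0.193 to 0.739 CPM in PRDX1MT, and those of the clones reached up to 0.327 and 0.134 CPM. A difference of the clones from WT was not detectable at this depth, and the gene passed the filter on low counts only through PRDX1MT. Lef1 (ENSMUSG00000027985, chromosome 3, 131110471 to 131224356, plus strand), a transcription factor that is both effector and target of the pathway, had 100 reads in WT (2.43 CPM, 1.98 to 2.96), 67 in PRDX1MT (2.69 CPM, 2.09 to 3.42), 42 in clone 1 (1.18 CPM, 0.849 to 1.59) and 27 in clone 5 (0.981 CPM, 0.646 to 1.43). WT and PRDX1MT overlapped, and the sign of their difference turned with scaling to total counts. Both clones lay lower, 2.06-fold (1.43 to 3.03) and 2.48-fold (1.61 to 3.94) below WT.

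Windows of 250 bases before RefSeq transcription starts (GRCm38.p6) were found for 5 of the 9 genes, Sfrp2, Frzb, Dkk2, Axin2 and Lef1. Sfrp1, Dkk3, Wnt5a and Rspo3 had none. The windows of Sfrp2, whose level lay on opposite sides of WT in the clones, and of the response genes Axin2 and Lef1 (the first of its windows) are printed 5′ to 3′ on the plus strand, with CG dinucleotides, the sites that Dnmt3a and Dnmt3b can methylate, in capitals.
Sfrp2, chr3:83766071-83766320: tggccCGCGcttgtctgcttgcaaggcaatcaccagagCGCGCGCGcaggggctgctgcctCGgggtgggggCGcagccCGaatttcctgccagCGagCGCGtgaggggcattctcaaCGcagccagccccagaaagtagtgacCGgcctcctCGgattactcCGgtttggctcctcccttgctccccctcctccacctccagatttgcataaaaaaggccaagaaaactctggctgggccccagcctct
Axin2, chr11:108920099-108920348: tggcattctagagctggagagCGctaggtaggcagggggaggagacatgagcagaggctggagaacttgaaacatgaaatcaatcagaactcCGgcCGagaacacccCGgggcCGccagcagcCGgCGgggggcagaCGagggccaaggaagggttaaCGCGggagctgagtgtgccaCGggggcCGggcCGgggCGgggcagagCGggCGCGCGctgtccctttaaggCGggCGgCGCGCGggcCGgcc
Lef1, chr3:131110047-131110296: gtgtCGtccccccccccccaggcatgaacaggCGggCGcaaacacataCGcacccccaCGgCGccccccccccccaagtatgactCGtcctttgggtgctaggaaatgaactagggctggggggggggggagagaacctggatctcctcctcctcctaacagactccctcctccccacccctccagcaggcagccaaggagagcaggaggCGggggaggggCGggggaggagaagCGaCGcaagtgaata

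These windows hold 16, 24 and 11 CG dinucleotides, against a median of 6 over 32851 windows of the same length. As many or more were found in 25.4% of all windows for Sfrp2, 12% for Axin2 and 35.6% for Lef1. Frzb also had 16, with 229 of its 250 bases inside the GENCODE gene, and Dkk2 had 7. The letters CTTTGA, the core recognised by Tcf and Lef factors, were searched on both strands and occur in 13.8% of all windows. They were absent from the 3 printed windows and from that of Dkk2, and occurred once in that of Frzb. Of 3 further Lef1 windows, those at later starts inside the gene included, 1 (chr3:131156044-131156293) held 2 matches and the others 0. Methylation was not measured in these files, and a match or its absence is a description of the letters only.

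Between genes, levels can be compared per kilobase of exon. In WT the order was Sfrp2 at 20.2 CPM per kilobase, Sfrp1 at 15.1, Frzb at 10.8, Rspo3 at 7.0, Wnt5a at 2.93, Dkk3 at 0.391, Lef1 at 0.277, Dkk2 at 0.203 and Axin2 at 0.0177. The intervals of Dkk3 and Lef1 overlapped, as did those of Lef1 and Dkk2, and the other neighbours in that order stood apart. In PRDX1MT Sfrp1 led at 7.30 CPM per kilobase, followed by Rspo3 at 3.45 and Sfrp2 at 3.19, which overlapped. In clone 1 Sfrp2 at 66.3 was followed by Dkk3 at 1.00 and Wnt5a at 0.720. In clone 5 Sfrp2 at 4.2 was followed by Wnt5a at 0.525 and Dkk3 at 0.227. Sfrp1 had dropped to the seventh place in clone 1 and the sixth in clone 5, where its interval overlapped those of Rspo3 and Dkk2.

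By count, both clones lay below both WT and PRDX1MT for 6 of the 9 genes (Sfrp1, Frzb, Dkk2, Wnt5a, Lef1 and Rspo3), a pattern found in 15.4% of the 19446 genes tested. PRDX1MT also lay below WT and above both clones for 4 of them (Sfrp1, Frzb, Wnt5a and Rspo3), against 7.46% of genes tested. By edgeR's quasi-likelihood test across all genes (Benjamini-Hochberg adjusted p under 0.05), Sfrp1 and Rspo3 were among the genes called lower in DKO, 2 of 9 against WT and 2 of 9 against PRDX1MT. Against WT 0.468% of all tested genes were called, 0.453% as lower and 0.0154% as higher, and against PRDX1MT 0.206% were, 0.195% as lower and 0.0103% as higher. The call of Rspo3 against PRDX1MT (adjusted p = 0.0410, edgeR) was lost under RLE scaling (0.0510), under total-count scaling (0.0722) and with only those groups in the fit (0.0845). The other 7 were not called in either comparison. Because the 9 were chosen with these counts known, their calls describe the choice and carry no weight as tests. The 2 comparisons share the DKO libraries.

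Single libraries were also compared by size: at least 2-fold apart, at least 100 reads in both together, and an interval that excludes no difference. By that rule 4 of the 6 genes with enough reads (Sfrp1, Sfrp2, Frzb and Rspo3) were lower in PRDX1MT than in WT and 0 higher, where 14.8% of 12693 genes with enough reads passed, 7.57% lower and 7.25% higher. In clone 1 against WT, 5 of 7 were lower (background 7.56%) and 2, Sfrp2 and Dkk3, were higher (background 8.4%, or 16% either way). In clone 5 against WT, 6 of 6 were lower (background 8.58%) and 0 higher (background 5.69%, or 14.3% either way), Sfrp2 being among the lower. Between the clones, Sfrp2 and Dkk3 were lower in clone 5 (2 of 3 with enough reads, background 10.7% lower, 7.63% higher and 18.4% either way). Dkk3 reached 100 reads in these comparisons only through clone 1, where it was high. Against a clone, Sfrp1, Frzb, Lef1 and Rspo3 reached them only through WT, and Frzb did so against PRDX1MT too. Their direction by this rule is thus tied to the read minimum.

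**Figure D2:**
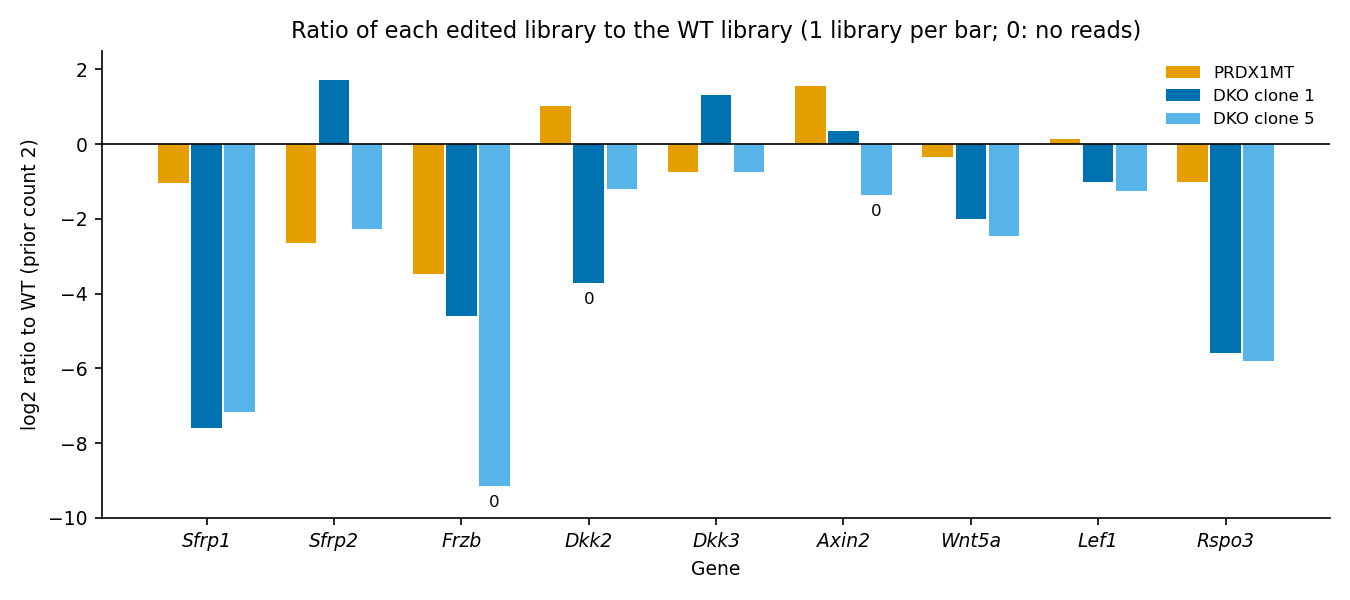
Log2 ratio of each edited library to the WT library, with a prior count of 2 added, 1 bar per library and a 0 under bars of libraries without reads, whose height depends on the prior count. Sfrp1, Frzb, Wnt5a and Rspo3 point down in all 3 edited libraries, whereas Sfrp2 and Dkk3 point up in clone 1 only.

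The wider pathway was taken from 7 lists with 113 genes between them, the 9 included. Of these, 87 had enough reads to be tested, and against WT 6 were lower in DKO, 0 higher and 81 did not pass by edgeR, with 15 at an unadjusted p under 0.05. Over all 19446 genes tested, 0.453% were called lower and 988 (5.08%) had an unadjusted p under 0.05. Without the 9 genes, 4 of 78 were lower. The median log2 ratio was -0.0085 over the 87 genes and 0.03 over all genes tested. Against PRDX1MT the median was -0.22 beside 0.04 over all genes. There 16 of the 87 genes had an unadjusted p under 0.05, beside 912 (4.69%) of all genes. By edgeR 4 of 87 were lower than in PRDX1MT and 0 higher, where 0.195% of all genes were called lower. Of these 4, Sfrp1 and Rspo3 belong to the 9, and without the 9 genes 2 of 78 were lower. A filter of 1 CPM in 2 libraries left 0 of these calls in either comparison. DESeq2 called 7 of the pathway genes against WT (1 higher, 6 lower) and 6 against PRDX1MT (all lower).

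The 4 genes outside the 9 that fell against WT were on the list of receptors. Of 16 listed receptors and co-receptors, 15 were tested and 4 fell (Ror2, Ptk7, Fzd3 and Fzd9), where 0.453% of all tested genes did. The other 11 did not pass, and the median log2 ratio was -0.22, also with genes at 0 reads set to their bound. Ror2, Ptk7 and Fzd3 passed the filter on low counts only through WT and PRDX1MT. They could therefore only come out lower in DKO, and their direction is not a result. Ror2 (chromosome 13, 53109312 to 53286124), the receptor kinase for Wnt5a, had 251 reads in WT, 474 in PRDX1MT and 0 in both clones. It was at least 128-fold lower in DKO than in WT (adjusted p = 0.0244) and at least 401-fold lower than in PRDX1MT (adjusted p = 0.0265, edgeR quasi-likelihood with Benjamini-Hochberg adjustment), against 3 counts over both clones. Without clone 1 and with WT and PRDX1MT joined, an alternative chosen after seeing the data, Ror2 and Rspo3 missed the threshold (adjusted p = 0.0509 each, edgeR), and Fzd9 did too (adjusted p = 0.0580). Total-count scaling also ended the call of Ror2 against PRDX1MT (adjusted p = 0.0501, edgeR). Its relative Ror1 lay between 35.3 and 49.3 CPM in the 4 libraries.

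Ptk7 (chromosome 17, 46564471 to 46629504), a co-receptor of planar cell polarity, had 647 reads in WT, 1381 in PRDX1MT, 7 in clone 1 and 0 in clone 5. It was 142-fold lower in DKO than in WT (68.5 to 354, adjusted p = 0.0321) and 501-fold lower than in PRDX1MT (243 to 1249, adjusted p = 0.0365, both by edgeR). Against PRDX1MT the call of Ptk7 was also lost under total-count scaling (adjusted p = 0.0684, edgeR). DESeq2 did not call Ptk7 (adjusted p = 0.544 against WT and 0.172 against PRDX1MT). Unlike Sfrp1 and Rspo3, Ror2 and Ptk7 were higher in PRDX1MT than in WT, 3.12-fold (2.67 to 3.65) and 3.53-fold (3.21 to 3.88).

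Fzd9 (chromosome 5, 135248938 to 135251230), a Frizzled receptor, had 887 reads in WT, 303 in PRDX1MT, 12 in clone 1 and 19 in clone 5. The fall of Fzd9 was 43.9-fold against WT (30.7 to 65.1, adjusted p = 0.0278) and 24.8-fold against PRDX1MT (17.1 to 37.2), where it missed the threshold by edgeR (adjusted p = 0.0550) and passed by DESeq2 (adjusted p = 1.99e-06). Fzd3 (chromosome 14, 65192449 to 65262463), a Frizzled of planar polarity and axon guidance, had 329 reads in WT, 22 in PRDX1MT and 0 in both clones, at least 168-fold below WT (adjusted p = 0.0306, edgeR). It was already 9.04-fold lower in PRDX1MT (5.87 to 14.6), and against PRDX1MT the DKO clones did not pass by edgeR (adjusted p = 0.136) and passed by DESeq2 (adjusted p = 0.00741). With WT and PRDX1MT joined as 1 control group, Fzd3 and Ptk7 no longer passed (adjusted p = 0.189 and 0.0563, edgeR).

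The abundant receptors did not pass. Fzd1, Fzd2, Fzd4, Fzd7, Fzd8, Lrp5, Lrp6 and Ryk had log2 ratios of DKO to WT from -0.74 (Fzd4) to 1.28 (Fzd8) with adjusted p = 1.0 by edgeR. Lrp5, a co-receptor that Dickkopf proteins bind, differed between clones, with 299.6 CPM in clone 1, 74.3 in clone 5 and 182 in WT. In PRDX1MT 5 receptors were higher than in WT by size (Fzd5, Fzd7, Lrp5, Ptk7 and Ror2) and 2 lower (Fzd3 and Fzd4), of 14 with enough reads, where 7.25% of all genes with enough reads were higher and 7.57% lower. Scaling to total counts left 3 higher (Fzd5, Ptk7 and Ror2) and 4 lower (Fzd3, Fzd4, Fzd9 and Lrp6).

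**Figure D3:**
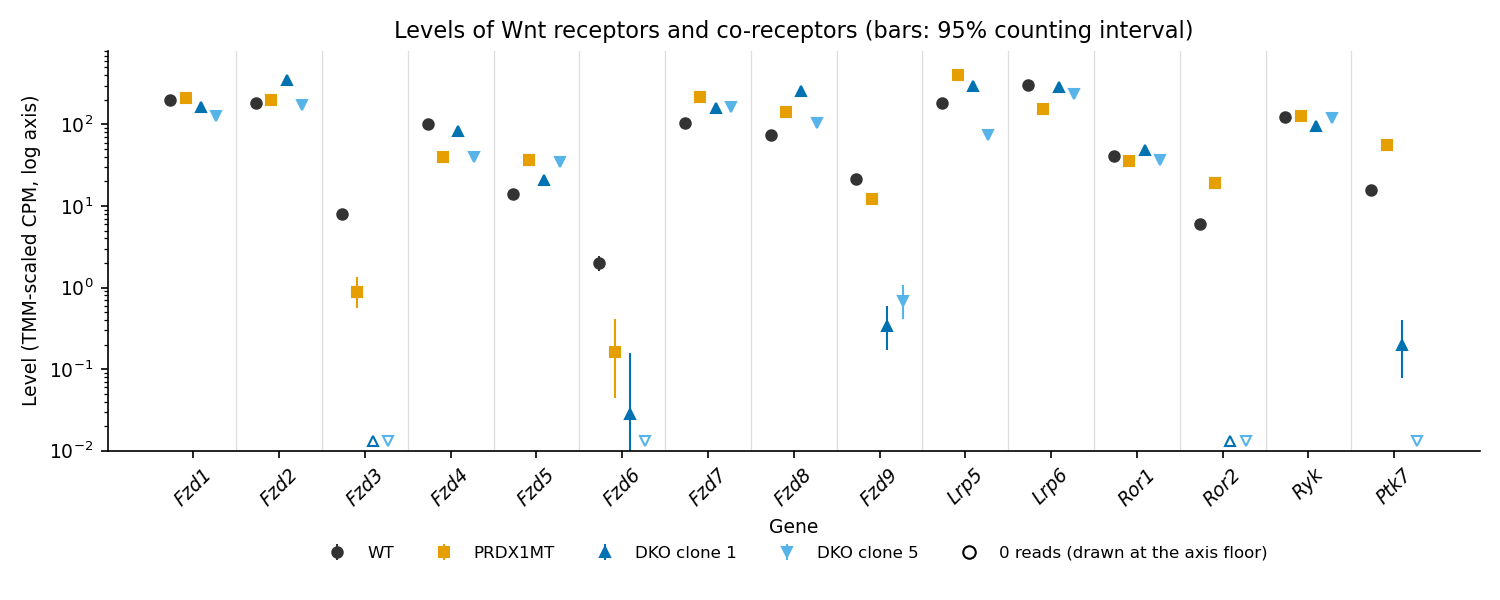
Level of 15 Wnt receptors and co-receptors in TMM-scaled CPM on a log axis, with 1 point per library, bars for the 95% counting interval, and open symbols at the axis floor for 0 reads. Ror2 and Fzd3 have no reads in either DKO clone, while Fzd1, Fzd2, Lrp6 and Ryk are at 96.3 CPM or more in all 4 libraries.

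In the other lists no gene outside the 9 passed between DKO and WT by edgeR, where 0.468% of all tested genes did. Of the 10 tested ligands and secretion factors 0 passed (3 at an unadjusted p under 0.05, and 1 lower by DESeq2, Wnt5b). Wls, which carries Wnt proteins to the cell surface, lay at 124 to 230 CPM. Of 7 tested R-spondins and Lgr receptors Rspo3 alone was lower (2 at an unadjusted p under 0.05, and also 1 by DESeq2). Lgr4, the R-spondin receptor with the most reads, was at 418 CPM in WT, 131 in PRDX1MT, 441 in clone 1 and 171 in clone 5. Of the 9 tested antagonists Sfrp1 alone was lower (3 at an unadjusted p under 0.05), with a median log2 ratio of -0.19.

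The intracellular machinery had 0 calls against WT, where 0.468% of all tested genes were called and 5.08% had an unadjusted p under 0.05. At that share of calls, lists of this size need not hold one. Of the 21 tested genes of the destruction complex and its partners 0 passed by edgeR, 0 by DESeq2 and 0 had an unadjusted p under 0.05, with a median log2 ratio of 0.04. Ctnnb1, which encodes beta-catenin, had 558 CPM in WT, 692 in PRDX1MT, 693 in clone 1 and 428 in clone 5. Axin1, the constitutive relative of Axin2, was at 57.5, 70.6, 64.9 and 70.3 CPM in the same order. Of the 15 tested nuclear transducers 0 passed by either tool and 0 had an unadjusted p under 0.05, with a median of -0.0085. Tcf7, a relative of Lef1, stood at 6.42 CPM in WT beside 2.64 and 3.05 in the clones and did not pass (log2 ratio -1.17, adjusted p = 1.0 by edgeR).

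Among genes commonly used as beta-catenin targets there were 0 calls by edgeR, beside 0.468% of all tested genes called against WT. Of 24 listed, 20 were tested and 0 passed against WT, with a median log2 ratio of -0.22 (0.03 over all genes tested). An unadjusted p under 0.05 was found for 4 of the 20, beside 5.08% of all tested genes, and DESeq2 called 1 higher, Jag1. Against PRDX1MT 0 passed by edgeR, 6 of the 20 had such a p (4.69% of all tested genes), and the median was -0.77 (0.04 over all genes). DESeq2 called 1 lower there, Fgf18. Jag1, a Notch ligand, had 95.9 CPM in WT, 345 in PRDX1MT, 284 in clone 1 and 538 in clone 5, and edgeR did not call it (log2 ratio 2.10, SE 0.63, adjusted p = 0.499). Notum, an enzyme that inactivates Wnt proteins, had 48 reads in WT, 29 in PRDX1MT and 1 in each clone (adjusted p = 0.181 against WT, edgeR). By size, 6 of 16 targets with enough reads were higher in PRDX1MT than in WT (Fgf18, Jag1, Apcdd1, Nkd2, Tbx3 and Twist1) and 1 was lower (Nkd1), beside 7.25% and 7.57% of all genes with enough reads. Under scaling to total counts Fgf18, Jag1 and Apcdd1 were higher and Nkd1 lower. Fgf18, a growth factor of skeletal tissue, had 0.705 CPM in WT, 7.60 in PRDX1MT, and 0.477 and 0.182 in the clones.

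**Figure D4:**
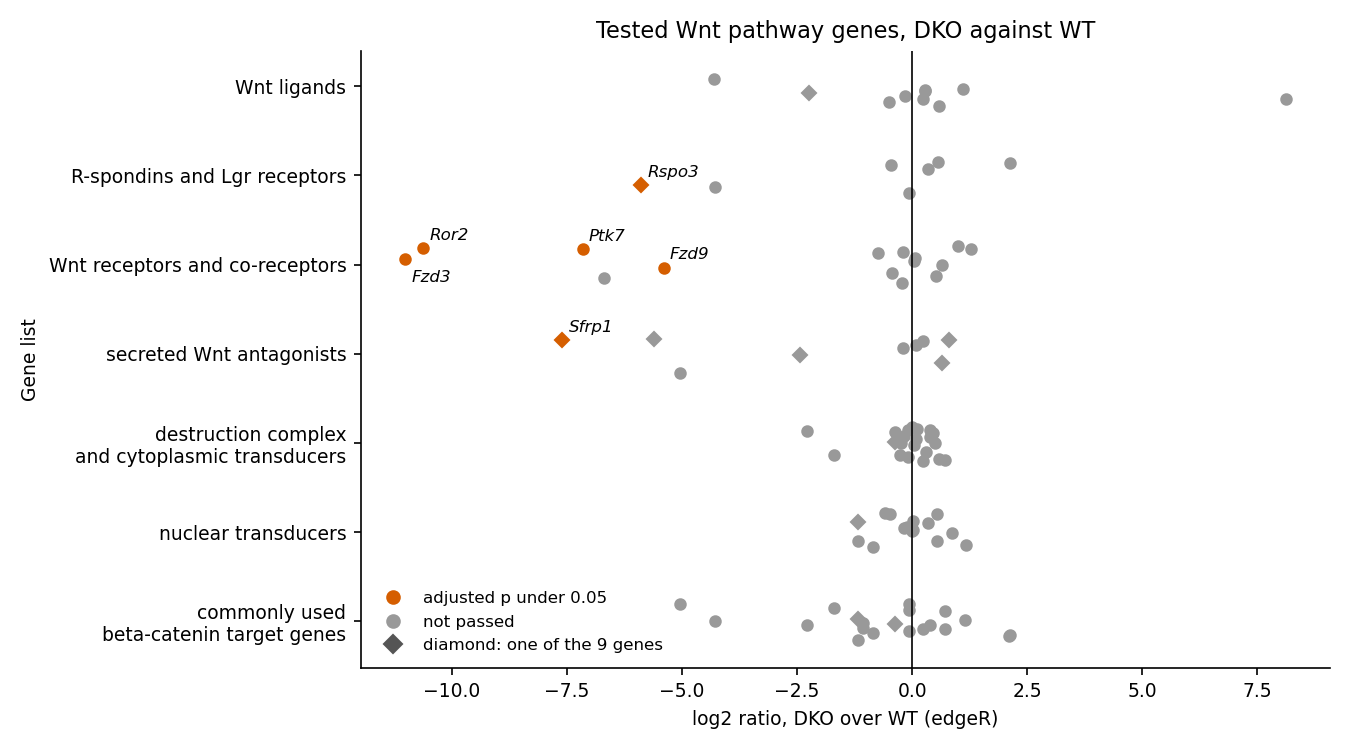
Fitted log2 ratio of DKO over WT for the tested genes of the 7 Wnt pathway lists, 1 symbol per gene and list, orange where edgeR's adjusted p was under 0.05 and diamonds for the 9 genes; the position of genes with 0 reads in a group depends on the prior count. The 6 genes called are all lower in DKO, and 4 of them are receptors.

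Genes next to the 9 on the chromosome had 0 calls by edgeR. The nearest protein-coding gene with at least 100 reads was taken on either side of each, which gave 18 genes. None of the 18 passed between DKO and WT or PRDX1MT by edgeR (1 in each comparison at an unadjusted p under 0.05), and their log2 ratios to WT ran from -0.93 to 2.35 with a median of -0.18. Over all tested genes 0.468% were called against WT and 0.206% against PRDX1MT, and 5.08% and 4.69% had an unadjusted p under 0.05. At those shares, 18 genes without a call are not set apart from other genes. Beside Sfrp1, Golga7 lay 154 kb before it with 43.9 CPM in WT, 37.6 in PRDX1MT, 47.8 in clone 1 and 43.7 in clone 5. On its other side Tcim, 988 kb away, had 7.53, 2.45, 0.757 and 7.19 CPM in that order, low in clone 1 and not in clone 5. Beside Frzb, Dnajc10 and Nckap1 had log2 ratios of -0.33 and -0.31, and beside Rspo3, Rnf146 and Cenpw had -0.07 and 0.05. The unadjusted p under 0.05 was that of Dchs2, 409 kb before Sfrp2, at 1.41 CPM in WT, 9.39 in clone 1 and 5.05 in clone 5 (log2 ratio 2.35, SE 0.79, adjusted p = 0.656, edgeR).

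**Figure D5:**
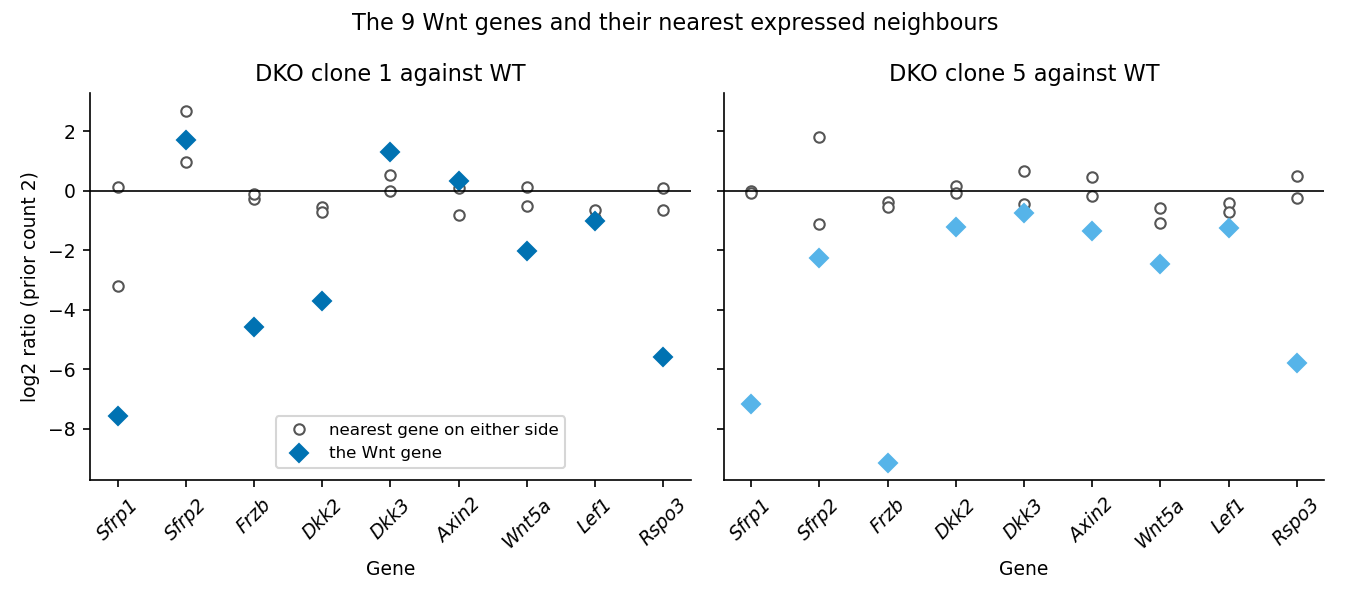
Log2 ratio to WT (prior count 2) in DKO clone 1 (left) and clone 5 (right) for each of the 9 genes (diamonds) and for the nearest protein-coding gene with at least 100 reads on either side (open circles). Sfrp1, Frzb, Dkk2, Wnt5a, Lef1 and Rspo3 lie below both of their neighbours in each clone by point value. Counting intervals, not drawn, overlap for Lef1 with its neighbours Rpl34 and Hadh in clone 1 and with Hadh in clone 5. Those of Dkk2 and its neighbour Aimp1 overlap in clone 5.

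The genes whose pattern over the 4 libraries was nearest to that of Sfrp1, among 11923 protein-coding genes with at least 100 reads, were Mark1, Pde10a, Krba1, Tspan7 and Thsd7a. Likeness was the Euclidean distance between log2 CPM profiles (prior count 2) centred on their means, 0.30 for Mark1 to 0.91 for Thsd7a against a median of 6.94. Mark1, a microtubule-affinity kinase gene, had 454 reads in WT, 167 in PRDX1MT, 0 in clone 1 and 1 in clone 5. Pde10a, a cyclic nucleotide phosphodiesterase gene, had 326, 108, 0 and 1. Krba1 had 428, 224, 0 and 0, Tspan7 266, 166, 0 and 1, and Thsd7a 481, 94, 0 and 2. All 5 had fewer reads than Sfrp1 in WT and in the clones. At 0 to 2 reads their clone levels, and so these distances, depend on the prior count. Tspan7 and Krba1 did not show the lower level of Sfrp1 in PRDX1MT, at 1.03-fold (0.845 to 1.26) and 0.866-fold (0.733 to 1.02) of WT. Of the 6 other members with enough reads to be ranked, Rspo3 came nearest to Sfrp1, in place 29 at a distance of 1.74, followed by Frzb in place 180 and Wnt5a in place 249. With 4 libraries this ranking is a description.

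Exons of antisense genes cover 3.8 to 16.1% of the exon bases of 5 members (Axin2, Lef1, Rspo3, Sfrp2 and Wnt5a). The antisense genes had at most 10 reads in a library, and reads of the 2 strands cannot be told apart here because the counting of strand is not stated.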

How the data were processed

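Total RNA was sequenced in 4 libraries after ribosomal RNA removal with a stranded kit, per the labels' protocols. STAR 2.6.1d and mm10 are the tool and build listed, per the submitters' processing notes. For the counting program, annotation and strand setting nothing is given in the sources used here. The authors deposited whole-number counts per Ensembl gene, not normalized, and 54495 of 54532 identifiers matched GENCODE M21. Groups came from the labels. The 3 groups were fitted together in R 4.3.3 with edgeR 4.0.16 (quasi-likelihood, TMM, filterByExpr by group, 19446 genes, Benjamini-Hochberg adjusted p under 0.05). Its spread rests on 1 residual degree of freedom between the DKO clones, whose separate culture is not stated. That spread is moderated with 6.54 prior degrees of freedom estimated over all tested genes. The p-values therefore measure a spread between these samples that is largely shared over genes, and assume that WT and PRDX1MT vary alike. Where both clones had 0 reads, as for Ror2 and Fzd3, the clones show no spread and the p-values measure none between them. The scripts were tested on simulated data. Ratios of 2 libraries have conditional exact binomial intervals, levels exact Poisson intervals. Because reads carry no molecular identifiers and can be copies, intervals and the floor of 3 counts (0.0729 to 0.121 CPM) cover counting error only.

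The 9 genes and the lists were chosen with earlier results of these data known. Named were the 9, list genes that passed, up to 3 per list with the largest ratios and at least 100 reads, the neighbours, and the 5 genes nearest to Sfrp1. Ctnnb1, Axin1, Ror1, Notum, Thy1, the receptors that did not pass and the ligands of the closing section were chosen after their values were seen. Alternatives were DESeq2 1.42.0, other scalings, filters, prior counts, read minimums and control groups, and each clone left out.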

Additional observations from a re-analysis of the deposited data

How the results depend on the processing

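Leaving out a clone with WT and PRDX1MT joined, chosen after seeing the data, gave 21 to 92 called genes in either comparison and 2 to 5 pathway genes. Without clone 1 these were Ptk7 and Sfrp1, and without clone 5 Fzd9, Ptk7, Ror2, Rspo3 and Sfrp1. No paired analysis was possible because WT and PRDX1MT have 1 library each and the clones' numbers match no other sample.

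Against WT, edgeR called 91 genes and 6 pathway genes. DESeq2 called 262 genes, no filter on low counts gave 535 and 13 pathway genes, and joining WT and PRDX1MT gave 37. A filter of 1 CPM in 2 libraries gave 0 of both by edgeR, with 490 genes at an unadjusted p under 0.05. Against PRDX1MT, edgeR called 40 genes and 4 pathway genes. DESeq2 called 215, RLE scaling 13, total-count scaling 7 (1 pathway gene, Sfrp1), no low-count filter 404 (11 pathway genes), the 2 groups alone 11 (2 pathway genes, Ror2 and Sfrp1), and 1 CPM in 2 libraries 0 of both, with 530 at an unadjusted p under 0.05. The cause was not tested. Between PRDX1MT and WT the size rule passed 1881 genes and 23 pathway genes, 3613 genes at a minimum of 20 reads, and 397 and 5 at a log2 ratio of at least 2, where fewer genes can pass by construction. Total-count scaling moved the median log2 ratio of all genes by -0.27 there (by -0.12 for DKO against WT and 0.16 against PRDX1MT), and the higher share of calls from 48.9% to 23.9%, or from 56.5% to 33.3% for pathway genes. Under other scalings and a prior count of 0.5, the log2 ratios of the 9 genes moved by no more than their spread in 75 of 81 values, and the directions that exceeded the spread were kept. That spread was the SD of the clones, or the counting interval for PRDX1MT against WT. It is a lax measure where the clones differ. Frzb against WT went from -6.87 to -7.89 at a prior count of 0.5 and still counted as within it. Leaving out a clone took the ratio of DKO to WT (mean of the clones, prior count 2) from -0.27 to -2.26 or 1.71 for Sfrp2 and from 0.29 to -0.74 or 1.32 for Dkk3, so their direction rests on the clone, and that of Frzb against PRDX1MT from -3.39 to -5.67 or -1.11.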

Other observations

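Wnt3a, Wnt7a and Wnt9b had 0 reads in all 4 libraries. Wnt2b was at 1.53 to 2.55 CPM, Wnt9a at 0.872 to 2.92 CPM, and Wnt16 at 0.799 to 0.972 CPM. Wnt2 had 12 reads in WT and 0 in each edited library. Wnt6 was read in the DKO clones alone beyond a single read, with 69 reads in clone 1, 5 in clone 5, 1 in PRDX1MT and 0 in WT, and did not pass against WT (adjusted p = 0.606, edgeR). The clones also differed for Porcn, the enzyme that attaches the lipid to Wnt proteins, at 22.7 CPM (clone 1) and 6.14 CPM (clone 5) beside 6.68 CPM (WT), and for Dact1, a Dishevelled regulator, at 15.5 and 1.13 CPM beside 10.0 CPM.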
